A study of Homo sapiens with 16 samples.

Results

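The clustered protocadherin genes lie on chromosome 5 in 3 groups called alpha, beta and gamma. Their chromatin was described with peak lists of 3 histone H3 marks in MCF-10A and MDA-MB-231 cells. On hg19 the windows were chr5:140165000-140392000 for alpha, chr5:140430000-140627000 for beta and chr5:140710000-140893000 for gamma. They were proposed with results of these same data in view, so every difference between the lines is given as a description and no test was made on it. The windows held 51 of the 193384 deposited peaks. Of these, 29 were peaks of H3K4me3, 10 of H3K27me3 and 12 of H3K9me2, and 21 lay in alpha, 6 in beta and 24 in gamma.

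MCF-10A is an established breast epithelial line that the labels describe as luminal ductal cells, and MDA-MB-231 is an established breast line that they describe as derived from a metastatic site. Both came from stocks kept in a laboratory and were given no treatment that the labels name. The medium of MCF-10A held EGF, insulin, cholera toxin and hydrocortisone, and that of MDA-MB-231 is given by a citation, so medium and line cannot be told apart. Chromatin immunoprecipitation followed by sequencing (ChIP-seq) was made on subconfluent cells. There were 2 replicates per mark and line, which the labels call biological, and 4 inputs that were not analysed here. Each line is a single line, so a difference between them is one between these cultures. The identity of the lines was not checked against marker genes, because no gene annotation of hg19 was used. Whether the 2 replicates came from separate cultures is not stated beyond the word biological.

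Protocadherins are cell adhesion proteins of the cadherin family. In the alpha and gamma clusters each variable first exon has a promoter of its own and is spliced to constant exons that all genes of the cluster share, whereas each beta gene stands alone. Neurons use these promoters in varying combinations, which gives single cells distinct surface identities, and most of the promoters carry a short conserved element with a CGCT core. The last genes of the alpha and gamma clusters are called C-type and are expressed more broadly among neurons. H3K4me3 marks active and poised promoters, H3K27me3 is laid down by Polycomb repressive enzymes, and H3K9me2 is found on silent genes and in heterochromatin.

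RefSeq lists 15 alpha, 16 beta and 22 gamma genes, and 47 of these 53 had a promoter entry in the table used, all on the plus strand. The stretches printed here are the 100 bases before the start in GRCh38.p14, plus strand, and show where CGCT strings lie in genes from the start of alpha (PCDHA1, PCDHA2), beta (PCDHB2) and gamma (PCDHGA1), beside 1 C-type gene of alpha (PCDHAC2) and 1 of gamma (PCDHGC3). They lie at chr5:140786040-140786139 for PCDHA1, chr5:140794752-140794851 for PCDHA2, chr5:140966376-140966475 for PCDHAC2, chr5:141094515-141094614 for PCDHB2, chr5:141330414-141330513 for PCDHGA1, chr5:141475866-141475965 for PCDHGC3. These positions are of GRCh38.p14 and were not converted to hg19, the build of the peaks, so no peak was assigned to a single gene. Capitals mark each CGCT.
PCDHA1: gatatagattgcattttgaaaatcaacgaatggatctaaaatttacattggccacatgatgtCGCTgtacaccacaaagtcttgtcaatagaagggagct
PCDHA2: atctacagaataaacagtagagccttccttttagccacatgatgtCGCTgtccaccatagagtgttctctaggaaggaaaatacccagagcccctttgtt
PCDHAC2: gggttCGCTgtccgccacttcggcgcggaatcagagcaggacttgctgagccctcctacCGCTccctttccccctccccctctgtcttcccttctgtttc
PCDHB2: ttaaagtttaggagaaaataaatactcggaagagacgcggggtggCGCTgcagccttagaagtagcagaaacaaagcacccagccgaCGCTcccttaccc
PCDHGA1: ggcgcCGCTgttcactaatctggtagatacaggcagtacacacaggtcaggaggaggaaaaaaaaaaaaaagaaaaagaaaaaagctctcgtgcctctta
PCDHGC3: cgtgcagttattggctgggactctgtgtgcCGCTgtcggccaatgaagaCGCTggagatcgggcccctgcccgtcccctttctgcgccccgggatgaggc
The letters CGCT, read on the strand of the gene within the 100 bases before the start, were found for 12 of 13 alpha, 13 of 14 beta and 19 of 20 gamma genes with an entry, against 32.2% of all 27305 genes with an entry. That stretch was chosen after the matches were seen. Both strands of the 300 bases were also read, for CGCT or its reverse complement AGCG, which can overlap as AGCGCT. There 46 of the 47 genes held a match, against 71.9% of all genes. A match is a string of letters and not a measured binding site. The conserved element around CGCT was not searched for, so a match need not be that element. PCDHA3, PCDHA13, PCDHB6, PCDHB11, PCDHGA12 and PCDHGC5 had no entry.

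The clearest contrast was in the alpha cluster, where MCF-10A carried a row of H3K4me3 peaks and MDA-MB-231 had none. Replicates 1 and 2 had 6 and 6 peaks there in MCF-10A, and 0 and 0 in MDA-MB-231. They covered 2.08% and 2.48% of the window in MCF-10A, a mean of 2.28% ± 0.283 (SD, n = 2). A stretch without a peak is one below the threshold of its list and was not shown to lack the mark, and read depth is unknown because the lists hold no counts. The 6 peaks of replicate 1 overlapped the 6 of replicate 2, so that each region was found in both libraries. Across the 3 windows 7 of 14 merged H3K4me3 regions were found in both MCF-10A libraries and neither MDA-MB-231 library, 1 showed the opposite pattern and 1 was found in all 4 libraries. Over all 18048 merged H3K4me3 regions of chromosomes 1 to 22 and X the shares were 5.91%, 6.27% and 68.5%. Since the windows were chosen for this contrast, the shares are printed beside the counts and nothing is read from them. The count of 1 region for MDA-MB-231 was 2 without MCF-10A replicate 1, MCF-10A replicate 2 or MDA-MB-231 replicate 1, and the count of 1 region in all 4 libraries was 2 without MCF-10A replicate 1 or MCF-10A replicate 2. Of all 200 kb tiles with an H3K4me3 peak, 23.5% had more cover in both MCF-10A libraries than in both MDA-MB-231 libraries, as the alpha window did, and 34.1% had more in both MDA-MB-231 libraries.

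**Figure D1:**
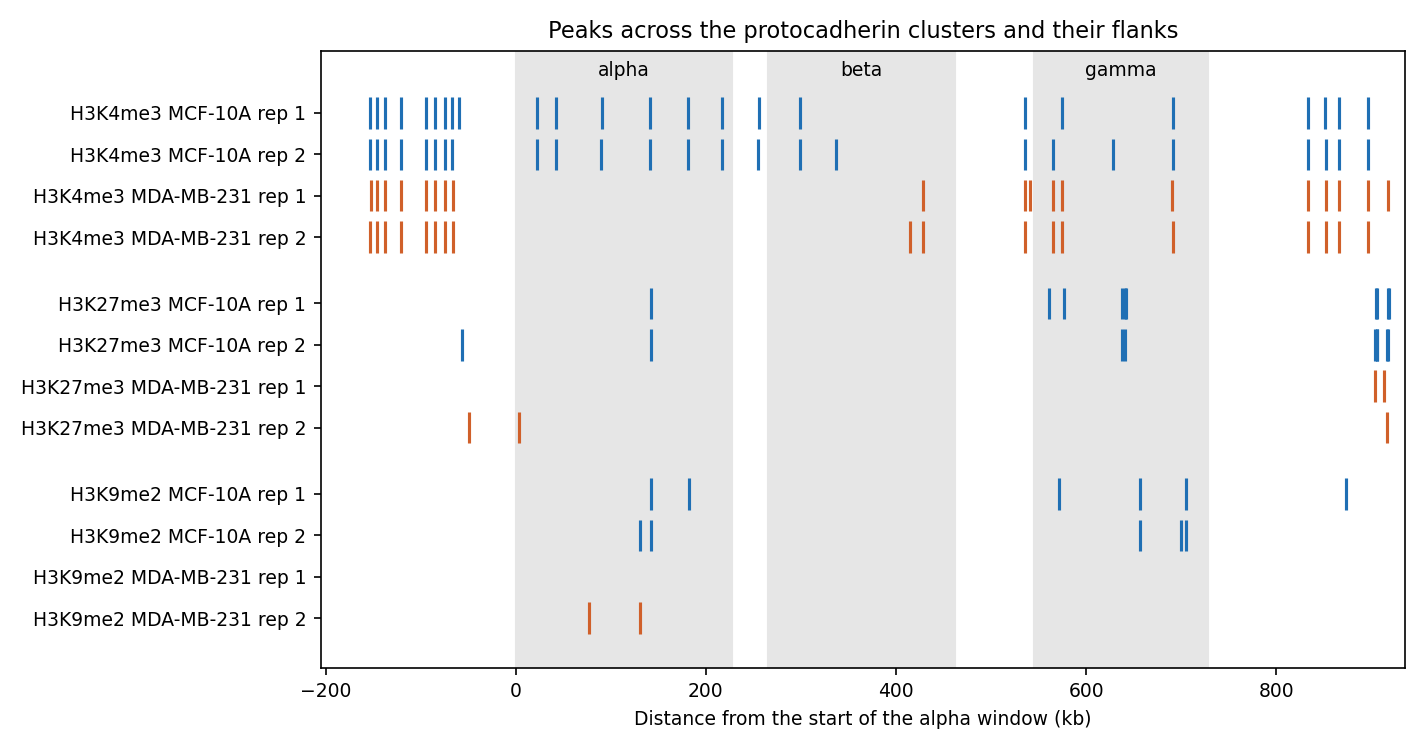
Peaks of the 12 libraries across the 3 cluster windows (grey) and 200 kb on either side, plotted as ticks at each peak's midpoint (ticks are wider than the peaks) against the distance in kb from the start of the alpha window. The 6 H3K4me3 ticks of MCF-10A in the alpha window have no counterpart in MDA-MB-231, while 7 of 10 H3K4me3 regions before alpha and 4 of 5 after gamma are found in all 4 libraries.

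The 6 alpha regions were spread over the window at intervals of 20.1 to 49.8 kb. From the start of the window they were chr5:140186595-140187371, chr5:140207475-140208077, chr5:140254769-140255625, chr5:140305378-140307061, chr5:140345754-140346746 and chr5:140381214-140382106. The last began 216 kb into the window and ended 9.89 kb before its end. The cluster has 15 genes, more than its 6 regions, and whether each region lies at a promoter was not tested.

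The alpha peaks were narrow and of modest rank. Their widths ran from 507 to 1480 bp with a median of 688 bp in replicate 1, and from 545 to 1684 bp with a median of 835 bp in replicate 2. The median of the whole H3K4me3 lists was 1207 and 1239 bp. The widest in both libraries was the region at chr5:140305378-140307061, with 1480 and 1684 bp. The narrowest in both was that at chr5:140207475-140208077, with 507 and 545 bp. In replicates 1 and 2 the first region measured 653 and 777 bp and the third 746 and 745 bp. The fifth measured 723 and 993 bp and the sixth 619 and 893 bp. In the authors' score per peak, which starts at about 50 in each list, the alpha peaks ranged from 172.87 to 619.08 in replicate 1 and from 208.16 to 967.35 in replicate 2. These scores placed them between the 17.1 and 37.1 percentiles of replicate 1 and between the 19.96 and 39.5 percentiles of replicate 2. None was near the lowest score, and all 6 regions stayed in both MCF-10A libraries at a score of at least 100.

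In the flanks most H3K4me3 regions were found in both lines, as were 68.5% of all merged regions. In the 200 kb before alpha 7 of 10 merged regions were found in all 4 libraries, and in the 200 kb after gamma 4 of 5 were. MCF-10A had 9 and 8 peaks in the 200 kb before alpha, where 8 and 8 were called in MDA-MB-231. Among these, chr5:140097909-140098631 was an MCF-10A region of 510 and 695 bp, and chr5:140098654-140099276 beside it an MDA-MB-231 region of 616 and 336 bp. The H3K4me3 lists of MDA-MB-231 were about as long as those of MCF-10A, with 16578 and 16193 peaks against 15568 and 16776. DNA copy number of the clusters was not tested, since the inputs were not analysed here.

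In the gap between alpha and beta, 27.9 kb past the end of the alpha window, a further region at chr5:140419858-140420826 was present in MCF-10A, at 814 and 900 bp, and in neither MDA-MB-231 library. It does not belong to the windows and is not counted in the 7. In the gap between beta and gamma, chr5:140699490-140701038 was found in all 4 libraries at 1206 and 1365 bp in MCF-10A and 1549 and 1175 bp in MDA-MB-231. A further peak, of 300 bp in MDA-MB-231 replicate 1, lay 3.94 kb before the gamma window.

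**Figure D2:**
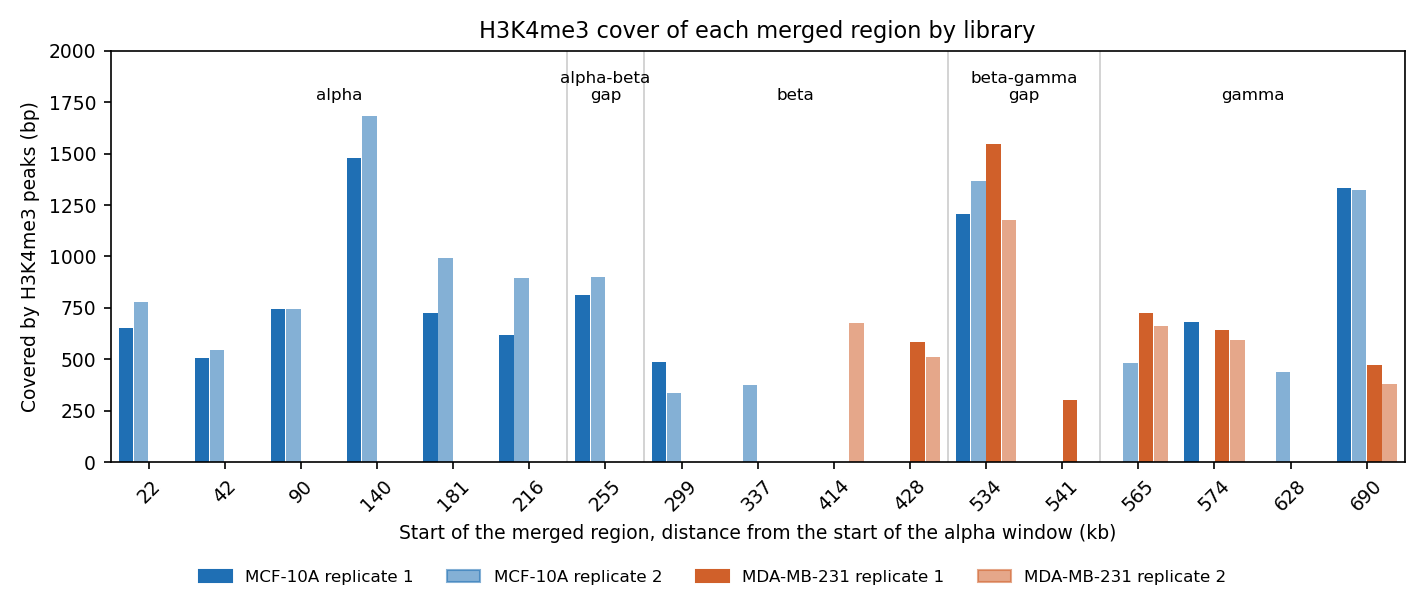
H3K4me3 cover in bp (bars from 0, 1 per library) of each merged region of the windows and of the gaps between them, labelled on the x axis by the distance of its start from the start of the alpha window in kb. The bars of the 6 alpha regions and of the alpha-beta gap are all from MCF-10A, and the last gamma region is wide in MCF-10A and narrow in MDA-MB-231.

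The beta cluster held little H3K4me3 in either line, and what there was lay at different places. MCF-10A had 1 and 2 peaks and MDA-MB-231 had 1 and 2, covering 0.248% and 0.3599% of the window in MCF-10A and 0.297% and 0.605% in MDA-MB-231. The ranges of the lines overlapped, and the difference of means, 0.147 percentage points, turned to -0.00660 without MDA-MB-231 replicate 2. The region chr5:140464266-140464754 was found in both MCF-10A libraries, at 489 and 335 bp, and in neither MDA-MB-231 library. The region chr5:140593393-140594009 showed the reverse, at 586 and 513 bp in MDA-MB-231. Single peaks of MCF-10A replicate 2 (chr5:140501556-140501929) and MDA-MB-231 replicate 2 (chr5:140579112-140579789) had no partner in the other replicate. All 6 beta peaks had scores between 50.24 and 98.2, close to the lowest score of the lists, and none was left at a score of at least 100.

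The gamma cluster was marked in both lines, and the lines differed most in the width of its last H3K4me3 region. There were 2 and 3 peaks in MCF-10A and 3 and 3 in MDA-MB-231, covering 1.101% and 1.23% of the window against 1.004% and 0.895%. The difference of means, -0.214 percentage points, was -0.0943 with lists of equal length and -0.141 at a score of at least 100. The region chr5:140855410-140856783, 36.2 kb before the end of the window, was found in all 4 libraries. Peaks there were 1334 and 1322 bp wide in MCF-10A and 471 and 382 bp in MDA-MB-231, a ratio of means of 0.321, and the widths did not overlap. Both MDA-MB-231 peaks lay in its first part: they ended at 140855913 and 140855945, whereas those of MCF-10A ended at 140856783 and 140856731.

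Rank within the lists followed the width of that region. Its score stood at the 50.3 and 52.01 percentiles of the MCF-10A lists and at the 7.08 and 4.38 percentiles of the MDA-MB-231 lists. The MDA-MB-231 peaks there had scores of 76.08 and 68.17, so that at a score of at least 100 no region of the windows was found in all 4 libraries (0 in place of 1). Among the 12367 regions found in all 4 libraries the median ratio of cover, MDA-MB-231 over MCF-10A, was 1.03, and 5% of regions had a ratio under 0.708. Of all 12367 regions 20 had a lower ratio than this gamma region. Since the windows were proposed with results of these data in view, this rank is a description and nothing is read from it. A cover lower in both MDA-MB-231 libraries than in both MCF-10A libraries with a mean ratio under 0.5 was found for 1.24% of them, and a lower cover at any ratio for 20.5%. The 12 shared regions of the flanks and gaps had ratios from 0.462 to 1.22. The next lowest was 0.687, and the other 10 ran from 0.818 to 1.22. The lowest was chr5:140011531-140013012, at 1340 and 1482 bp against 567 and 737 bp.

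**Figure D3:**
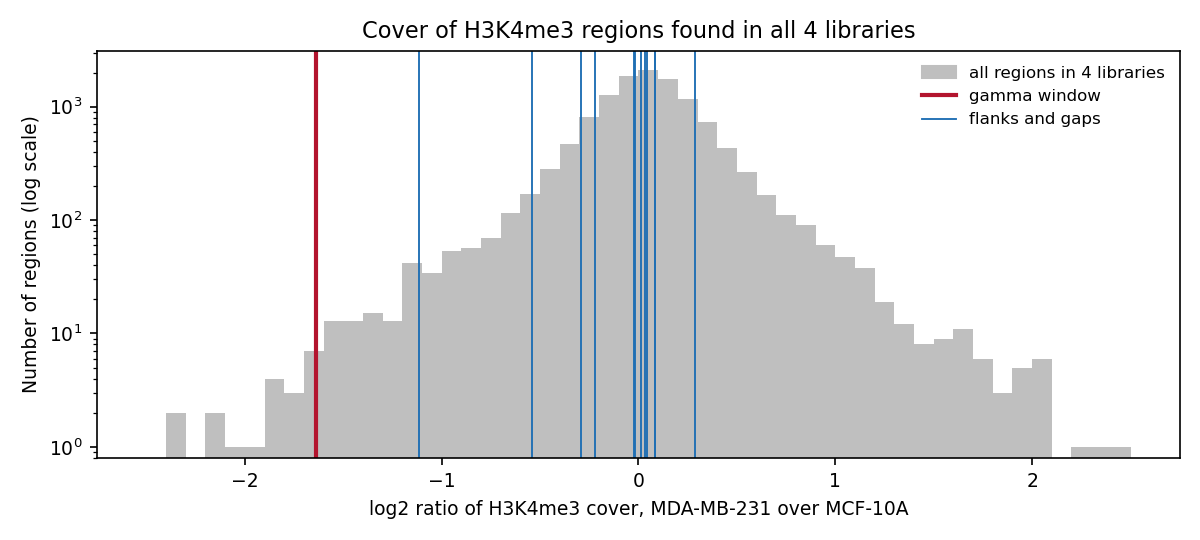
Distribution of the log2 ratio of H3K4me3 cover, MDA-MB-231 over MCF-10A, over the 12367 regions found in all 4 libraries (grey bars, counts on a log axis, with 3 regions beyond the plotted range), with the gamma region in red and the 12 shared regions of the flanks and gaps in blue. The gamma region, at a ratio of 0.321, lies to the left of all 12 blue lines, 10 of which fall between 0.818 and 1.22.

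At the start of the gamma cluster both lines carried H3K4me3 peaks of low rank, between the 7.65 and 24.4 percentiles of their lists. The region chr5:140729533-140730333 had peaks of 723 and 662 bp in MDA-MB-231 and of 484 bp in MCF-10A replicate 2, and none in MCF-10A replicate 1. The region chr5:140739284-140740123 had peaks of 644 and 594 bp in MDA-MB-231 and of 681 bp in MCF-10A replicate 1, and none in MCF-10A replicate 2. Each was therefore found in 3 of 4 libraries and was called for no line. A peak of MCF-10A replicate 2 at chr5:140792632-140793068 had a score of 50.04 and no partner. Inside the windows 8 of 9 peaks of MCF-10A replicate 1 overlapped replicate 2, and 8 of 11 peaks of replicate 2 overlapped replicate 1. In MDA-MB-231 the counts were 4 of 4 and 4 of 5.

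The repressive marks covered little of the clusters, and most of what they covered was in MCF-10A. H3K27me3 had 6 and 3 peaks in MCF-10A and 0 and 1 in MDA-MB-231, and H3K9me2 had 5 and 5 against 0 and 2. In MCF-10A 3 of 6 and 3 of 3 H3K27me3 peaks, and 3 of 5 and 3 of 5 H3K9me2 peaks, overlapped a peak of the other replicate, and in MDA-MB-231 0 did. The beta window had no peak of either mark in any library. The lists of MDA-MB-231 were shorter in 3 of 4 cases: 8470 peaks in H3K27me3 replicate 1 and 6147 and 5045 in H3K9me2, against 28896 and 28955, and 10656 and 8885, in MCF-10A. Replicate 2 of the MDA-MB-231 H3K27me3 lists had 30496 peaks, and 1 of them lay in the windows. With the 4 lists of a mark made equally long by taking the top scores, 1 H3K27me3 and 1 H3K9me2 region were called for MCF-10A alone, against 3 and 3 in the full lists.

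In the alpha window H3K27me3 covered 0.242% and 0.217% in MCF-10A and 0% and 0.165% in MDA-MB-231. The peak of MDA-MB-231 lay at chr5:140167882-140168256, near the start of the window and away from those of MCF-10A. The difference of means, -0.147 percentage points, was -0.0645 without MDA-MB-231 replicate 1 and -0.230 without MDA-MB-231 replicate 2. H3K9me2 covered 1.38% and 1.58% of alpha in MCF-10A and 0% and 1.34% in MDA-MB-231. In MCF-10A replicate 2 and MDA-MB-231 replicate 2 the H3K9me2 peaks at chr5:140294883-140297006 overlapped, with scores of 54.47 and 50.58. With list lengths made equal, the sign of the H3K9me2 difference in alpha turned, from -0.807 to 0.341 percentage points, and with cover scaled to each library's total it was -0.351. Without MDA-MB-231 replicate 2 that difference was -1.48 percentage points and without replicate 1 it was -0.137. Its size thus depended on which MDA-MB-231 library was kept. Every repressive peak of the alpha window had a score under 100.

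In the gamma window both repressive marks were seen in MCF-10A and in neither MDA-MB-231 library. H3K27me3 covered 1.92% and 0.705% and H3K9me2 covered 3.06% and 2.67% of the window in MCF-10A, and every MDA-MB-231 library had 0%. Of the 7 merged H3K27me3 regions in the 3 windows, 3 were found in both MCF-10A libraries and neither MDA-MB-231 library, 0 in the opposite pattern and 0 in all 4 libraries. The shares of all 66286 merged H3K27me3 regions were 11.1%, 2.99% and 1.77%. Of the 8 H3K9me2 regions the counts were 3, 0 and 0, and the shares of all 18327 merged regions were 23.4%, 9.12% and 5.30%. Without MCF-10A replicate 2 the counts for MCF-10A were 6 for H3K27me3 and 5 for H3K9me2. Without MDA-MB-231 replicate 1 the counts for MDA-MB-231 were 1 and 1. By cover, 44.5% of the 200 kb tiles with an H3K27me3 peak and 43.5% of those with an H3K9me2 peak had more in both MCF-10A libraries, against 10.1% and 13.5% with more in both MDA-MB-231 libraries, so the direction seen in gamma is a common one for these marks. Without MCF-10A replicate 1 the H3K27me3 difference in gamma was -0.705 percentage points, against -1.31 with all libraries, and it was -0.699 both with lists of equal length and at a score of at least 100. The H3K9me2 difference, -2.87 percentage points, was -1.88 with lists of equal length and -0.899 at a score of at least 100. At that score 1 H3K27me3 and 0 H3K9me2 regions were called for MCF-10A alone.

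**Figure D4:**
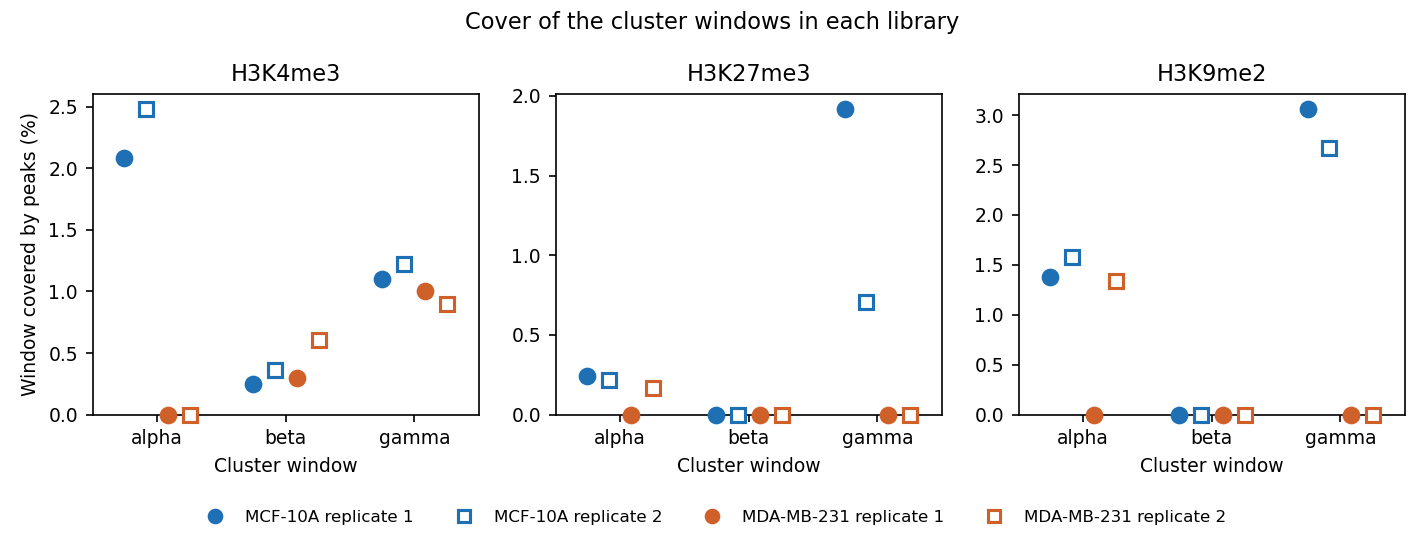
Percent of each cluster window covered by peaks in each library (filled circles, replicate 1; open squares, replicate 2), with 1 panel per mark and separate axes starting at 0. H3K4me3 differs most in alpha (2.08% and 2.48% against 0%), and both repressive marks differ most in gamma, where MDA-MB-231 is at 0%.

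Within gamma the repressive marks did not lie on the H3K4me3 regions. The H3K27me3 regions found in both MCF-10A libraries were chr5:140802385-140803115, at 691 and 519 bp, and chr5:140805256-140806438, at 1097 and 772 bp. A further peak of replicate 1 at chr5:140807057-140807654 followed, so that this stretch held 5 of the 7 H3K27me3 peaks of the cluster. It lay 9.32 kb from the nearest H3K4me3 peak, the unpartnered one of replicate 2, and at least 47.8 kb from the nearest peak of replicate 1. The other H3K27me3 peaks, both of replicate 1, were at chr5:140725237-140725910 and chr5:140741272-140741723, the latter 1.19 kb from an H3K4me3 peak. H3K9me2 was found in both MCF-10A libraries at chr5:140820628-140821998, at 1371 and 1297 bp, and at chr5:140868627-140871915, at 3289 and 2128 bp. The latter was the widest repressive peak in the windows and began 11.8 kb past the last H3K4me3 region of gamma.

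At 1 site of the alpha cluster all 3 marks met in MCF-10A. The widest alpha H3K4me3 region, chr5:140305378-140307061, overlapped H3K27me3 and H3K9me2 peaks of both MCF-10A libraries. The H3K27me3 peaks were 550 and 493 bp wide and overlapped the H3K4me3 peak of the same replicate number by 128 and 493 bp. The H3K9me2 peaks were 1301 and 1493 bp wide and overlapped it by 151 and 318 bp. Together the peaks spanned 2859 bp, with H3K4me3 to the left and H3K9me2 reaching farthest to the right. None of the 6 MDA-MB-231 lists had a peak within 5 kb of the region.

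Such sites were rare in these lists, as was each repressive mark alone on H3K4me3 regions. Whether the 2 repressive marks met there more often than their separate shares imply was not tested. Of the 8 H3K4me3 regions of the windows found in both MCF-10A libraries, 1 overlapped H3K27me3 of both libraries and 1 H3K9me2 of both, and it was the same region. Over all 13804 such regions 2.21% overlapped H3K27me3, 1.46% H3K9me2 and 0.0290%, which is 4 regions, both. Of the 4 H3K4me3 regions of the windows found in both MDA-MB-231 libraries 0 overlapped H3K27me3, 0 H3K9me2 and 0 both, where 0.516%, 0.179% and 0.00717% of all 13952 did. The repressive peaks at the site had low scores, 65.78 and 51.29 for H3K27me3 and 61.74 and 89.44 for H3K9me2, and none was left at a score of at least 100. Peaks are averages over many cells and over both alleles, so marks on the same stretch need not share a nucleosome or a cell.

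**Figure D5:**
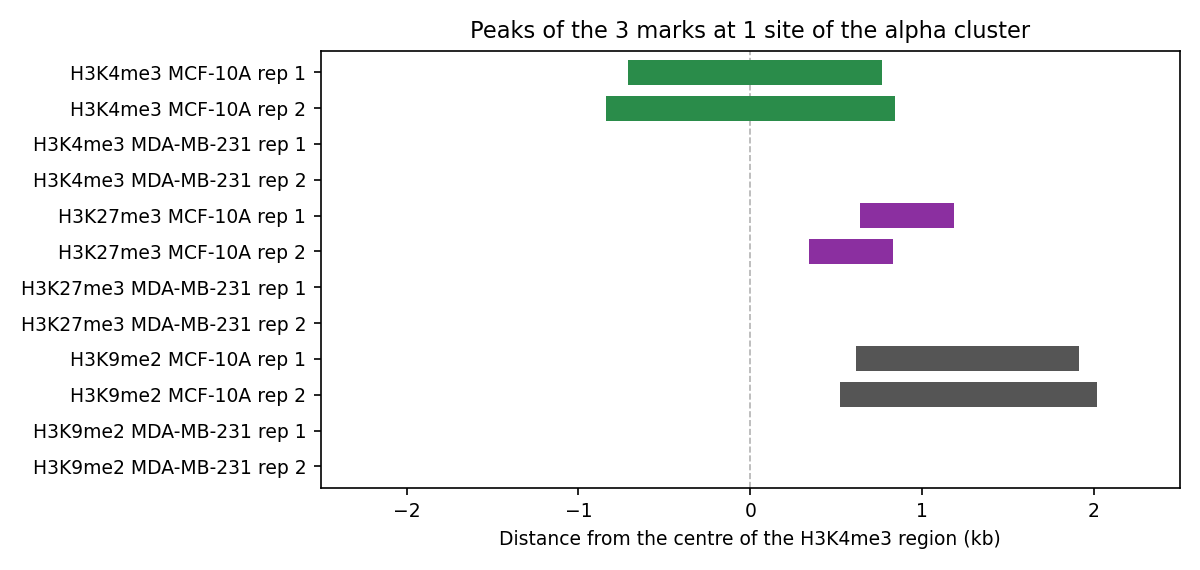
Peaks of all 12 libraries, drawn to scale, within 2.5 kb of the centre of the H3K4me3 region of the alpha cluster where the 3 marks met, with the distance from that centre in kb on the x axis. In MCF-10A the H3K27me3 and H3K9me2 bars begin inside the right part of the H3K4me3 bars, and the rows of MDA-MB-231 are empty.

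A second alpha region, chr5:140345754-140346746, overlapped an H3K9me2 peak of MCF-10A replicate 1, by 135 bp with the H3K4me3 peak of replicate 1, but no peak of replicate 2. It is the next H3K4me3 region to the right of the site with 3 marks. The other 4 alpha regions carried no repressive peak in any library.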

How the data were processed

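The 16 samples of the series are H3K4me3, H3K27me3 and H3K9me2 immunoprecipitates and inputs of 2 lines, with 2 replicates each. The deposited files used are 12 peak lists, 1 per replicate, each with positions and the authors' score of every peak. No source used here gives the scale of that score, which served to rank or filter peaks inside a list. Per the labels' protocols libraries were paired-end, and replicates were combined for further work, but these lists were not. The tools listed in the submitters' processing notes are CASAVA 1.6, Bowtie2, MACS 1.4 and bedtools, with the build hg19. Their roles and settings, and any use of the inputs, were not given in the sources used here. The lists hold no counts, so depth is unknown, and precision rests on 2 replicates per group.

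Positions are printed counting from 1, and peaks of chromosomes 1 to 22 and X were kept. For each mark, peaks that shared 1 bp or more across its 4 libraries were joined into merged regions. Cover is the share of a window under peaks. Background shares come from all merged regions and from tiles of 200 kb. The members, lists and rules were chosen with earlier results of these data known. Named are every merged H3K4me3 region of the windows, of the repressive marks the regions in both libraries of a line, and the widest peaks. The other single peaks named were chosen after their values were seen. The planned overlap of peaks with gene starts, for the protocadherins and the comparison genes, was left out because the gene table is of GRCh38.p14. Merging, calling and cover were checked on simulated lists. Alternatives were a score of at least 100, equal list lengths, windows widened by 10 kb, scaled cover, other overlap rules, tiles of 100 and 500 kb, and each library left out. Python 3.11.15, NumPy 2.4.6, pandas 2.3.3 and matplotlib 3.10.9 were used.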

Additional observations from a re-analysis of the deposited data

How the results depend on the processing

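No paired analysis was possible because the results come from no test, which leaves no fit for the replicate number to enter. The difference in alpha H3K4me3 peak number was -6 under every alternative run, and the 7 H3K4me3 regions of MCF-10A ranged from 7 to 9 with a library left out. With lists of equal length that count was 6. At a score of at least 100 it was again 7, but with the last gamma region in place of the beta region. The overlap with gene starts was not run. Differences are MDA-MB-231 minus MCF-10A, in percentage points of cover unless peaks are named, and the cause of each change was not tested.

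Windows widened by 10 kb took in the peaks of the gaps nearest to beta and gamma. That turned the beta H3K4me3 difference from 0.147 to -0.229 and its peak number from 0 to -1, and moved gamma H3K4me3 to -0.0973 from -0.214. Gamma H3K9me2 went to -2.58 from -2.87 with no peak gained, since the window was longer. Equal list lengths gave -0.0943 for gamma H3K4me3, 0 for alpha H3K27me3 (from -0.147), 0.341 for alpha H3K9me2 (from -0.807), -0.699 for gamma H3K27me3 (from -1.31) and -1.88 for gamma H3K9me2. They left 6 H3K4me3 regions of MCF-10A (from 7) and 0 of MDA-MB-231 (from 1). For MCF-10A they left 1 H3K27me3 region (from 3) and 1 H3K9me2 region (from 3). A score of at least 100 gave 0 for beta H3K4me3, -0.141 for gamma H3K4me3, 0 for alpha H3K27me3, 0 for alpha H3K9me2, -0.699 for gamma H3K27me3, -0.899 for gamma H3K9me2, 0 H3K4me3 regions in both lines, 1 H3K27me3 and 0 H3K9me2 regions of MCF-10A, and 0 alpha regions with H3K27me3, H3K9me2 or both. Cover scaled to a library's total gave -2.51 for gamma H3K9me2 and -0.351 for alpha H3K9me2. A peak in either library gave 2 H3K4me3 regions of MDA-MB-231 and 3 in both lines, 6 H3K27me3 regions of MCF-10A and 1 of MDA-MB-231, and 6, 1 and 1 H3K9me2 regions of MCF-10A, of MDA-MB-231 and in both. At least 50% of the region covered left 0 H3K4me3 regions in both lines and 0 with a repressive mark.

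With a library left out, the beta H3K4me3 cover difference ranged from -0.00660 (without MDA-MB-231 replicate 2) to 0.301, the H3K4me3 regions of MDA-MB-231 and those in both lines from 1 to 2 each, the H3K27me3 regions from 3 to 6 in MCF-10A and 0 to 1 in MDA-MB-231, and the H3K9me2 regions from 3 to 5 and from 0 to 1. Tiles of 100 and 500 kb gave 39.7% and 50.9% for H3K27me3 and 38.2% and 52.4% for H3K9me2 in the direction of MCF-10A. Depth is unknown, so its effect on the peaks was not tested.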
